A study of Mus musculus with 6 samples.

Results

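The tumour necrosis factor (TNF) superfamily was examined in cultured smooth muscle cells taken from the mouse aorta, the cells that contract the vessel. Its members were the genes whose symbol begins with Tnfsf (ligands) or Tnfrsf (receptors) followed by a digit, with 1 such gene left out. This rule took 30 of the 27179 genes in the count table, 11 ligand genes and 19 receptor genes. The cells were wild type (WT, 3 libraries) or labelled Bmal1 KO (3 libraries), Bmal1 being the partner of CLOCK at the core of the circadian clock. Both groups had been kept for 7 days in the same medium, called diabetic in the labels, which contained glucose at 4.5 g/L and hydrogen peroxide at 0.3 mM on top of the growth medium. The labels give neither the age, sex or number of the mice nor the Cre or allele behind the deletion, and they do not say that replicates were separate cultures. P-values therefore measure the spread between these libraries, which may be technical.

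Ligands of this superfamily are mostly trimeric proteins that sit in the membrane or are shed from it, and each binds 1 or a few receptors with cysteine-rich outer domains. Receptors with a death domain recruit TRADD or FADD and can lead to caspase activation, while most others bind TRAF adaptors and turn on NF-kB and MAP kinases, and decoy receptors carry no signal of this kind. In the vessel wall, TNF acting on smooth muscle cells is known to induce chemokines and adhesion molecules, and RANK ligand, TRAIL and TWEAK have been studied in vascular calcification, cell death and remodelling.

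Each library held between 32503525 and 44657471 recovered reads. The 10 smooth muscle markers examined all had reads in each group. From WT to Bmal1 KO 9 of them rose, where 36.2% of all genes tested did. Acta2 went from a mean of 20688 to 62931 normalized counts and Tagln from 5410.0 to 32334. Markers of other cell types also had reads, and their values stand beside the members they concern. The gene of Bmal1 itself, listed as Arntl, was higher where the label says KO (579 ± 45.7 normalized counts in WT and 1005 ± 54.9 in the others, SD, n = 3), so it goes against the label. Counts over the whole gene cannot show whether an exon is missing. These libraries are named by their label throughout, and “labelled KO” stands for Bmal1 KO in the labels. Xist was at 12.4 to 89.9 in WT and 3842 to 3887 in labelled KO libraries, and the 4 Y-linked genes Ddx3y, Eif2s3y, Kdm5d and Uty were 21.5-fold to 40.3-fold lower in labelled KO libraries. Sex-linked expression therefore splits the libraries exactly as the genotype label does, and the 2 cannot be told apart in any difference given here.

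Of the 30 members, 25 passed the filter on low values (at least 10 normalized counts in at least 3 libraries) and were tested with limma. Among them 8 rose and 9 fell from WT to labelled KO at a Benjamini-Hochberg adjusted p under 0.05, or 32.0% and 36.0% of those tested. Over all 16086 genes tested 36.2% rose and 34.9% fell, 71.1% in all, so the share of members called (68.0%) was close to the background. Of the 25, 14 were called and differed at least 2-fold by their means, against 33.6% of all genes tested. The groups did not overlap in 18 of the 25, against 76.7% of all genes tested. The median log2 fold change of the 25 was 0.086 (all genes -0.012), and the median of its absolute size was 1.43 (all genes 0.63). A total of 4 passed the filter without reaching 10 in every library of both groups: Tnfsf11 only through WT, and Tnfsf8, Tnfsf10 and Tnfrsf13c through 1 full group and part of the other. Such genes could be tested because a group was high, so the counts describe the genes that passed and not the family.

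**Figure D1:**
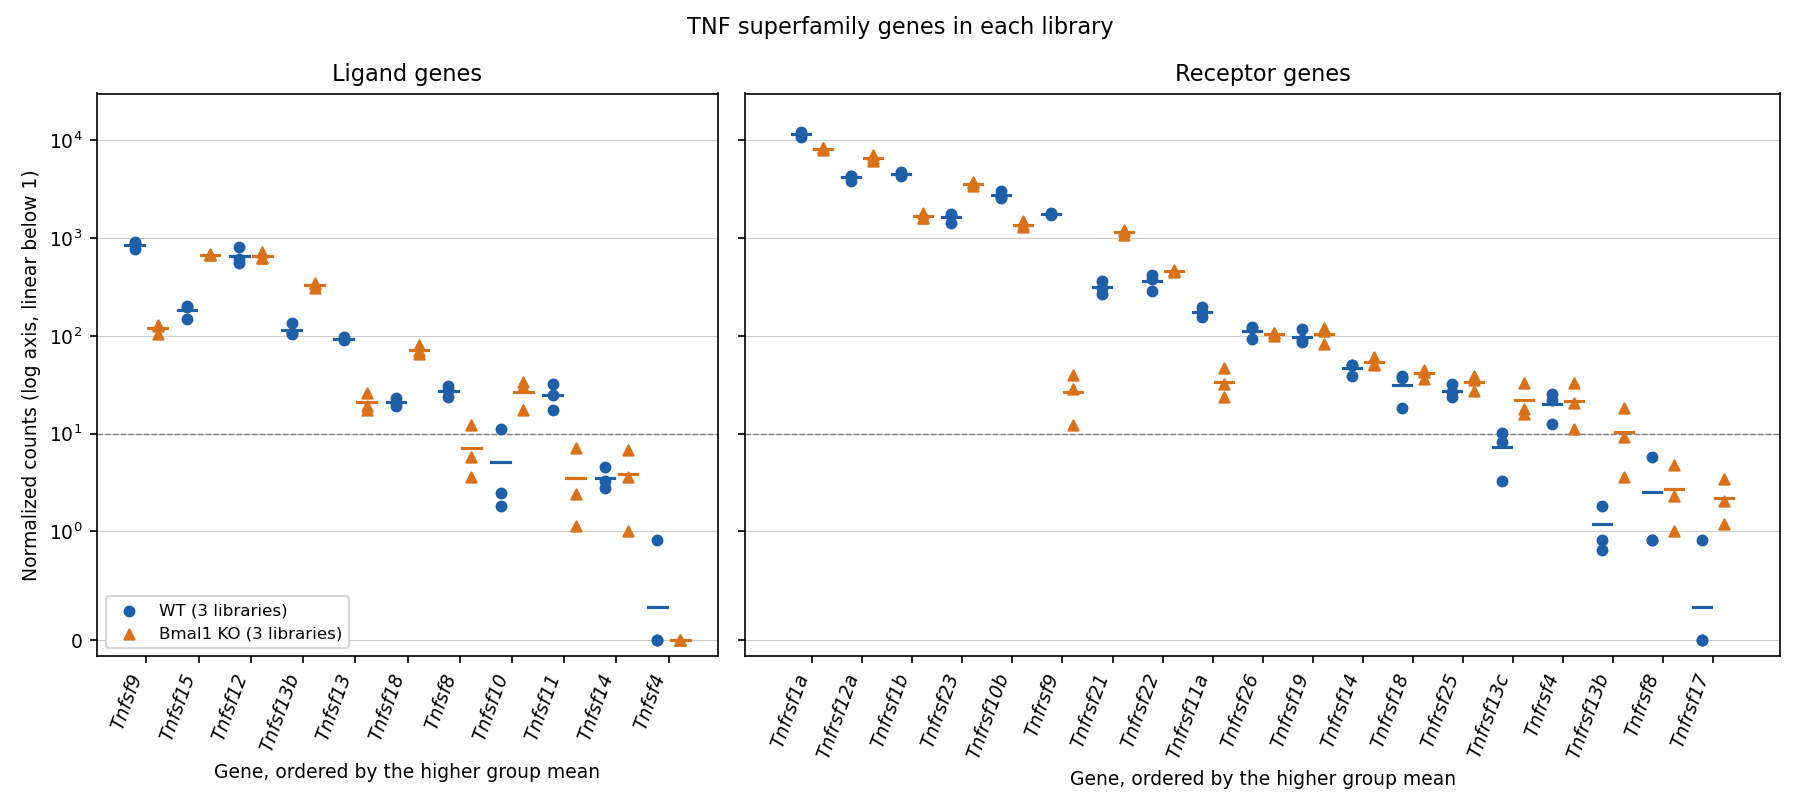
Normalized counts of the 11 ligand and 19 receptor genes in each library (log axis, linear below 1). Circles are the 3 WT and triangles the 3 labelled KO libraries, short lines are group means and the dashed line marks the value of 10 used in the filter. Tnfrsf9 shows the widest gap, with WT libraries at 1699 to 1813 and labelled KO libraries at 12.2 to 39.6.

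**Figure D2:**
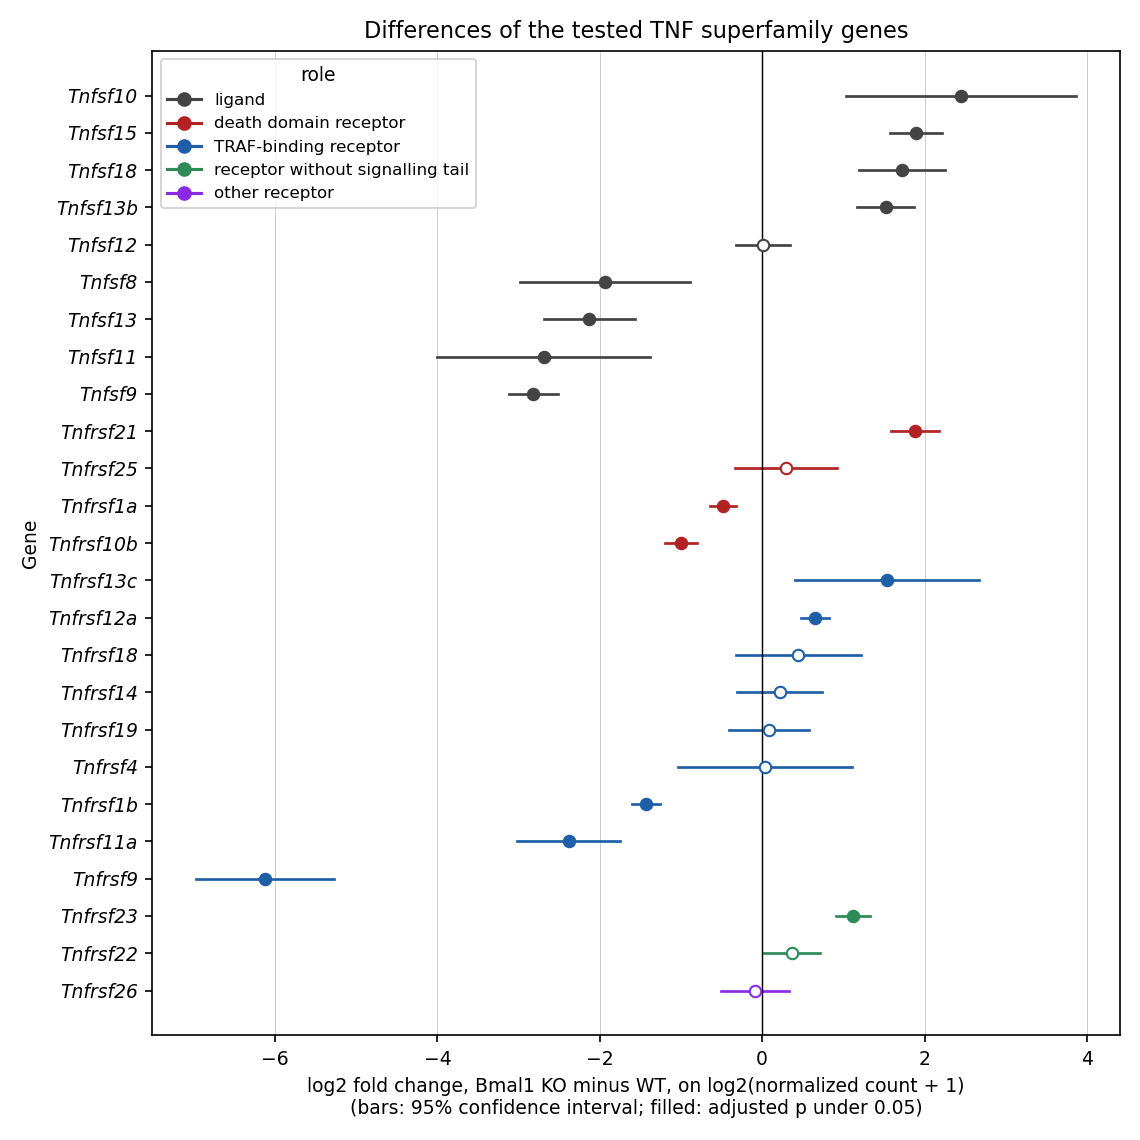
Log2 fold change (labelled KO minus WT, on the log2(normalized count + 1) scale) of the 25 tested genes with its 95% confidence interval, coloured by the role of the gene. Filled points had a limma adjusted p under 0.05. Ligands spread from Tnfsf9 at -2.82 to Tnfsf10 at 2.45, and the receptor Tnfrsf9 lies apart at -6.12.

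The ligand gene Tnfsf9 and its receptor gene Tnfrsf9 both fell. Tnfrsf9 encodes CD137, a TRAF-binding costimulatory receptor of activated T cells that endothelial and other cells can also make. It had 1699, 1813 and 1743 normalized counts in WT replicates 1, 2 and 3 and 12.2, 39.6 and 28.6 in labelled KO replicates 1, 2 and 3. The groups were far apart, and the labelled KO libraries differed by more from each other, in proportion, than the WT libraries did. The fall was 65.4-fold by the means (log2 fold change -6.12, SE 0.36, limma adjusted p = 4.20e-06), the 20th largest fall among the 16086 genes tested. Tnfsf9 (chromosome 17, 57105287 to 57107758 in the mm10 build), which encodes the CD137 ligand, had 894, 902 and 767 in WT and 127, 128 and 105 in labelled KO libraries. It fell 7.11-fold (log2 fold change -2.82, SE 0.13, limma adjusted p = 1.05e-06), with every labelled KO library below every WT library. In the annotation 14.9% of the exon bases of Tnfsf9 lie opposite a long noncoding RNA gene, Gm11110, and the strand setting of the counting is not given in the sources used here.

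Tnfrsf9 lies on chromosome 4 (150920155 to 150946104), and RefSeq (GRCm38.p6) gives 2 start sites for it. The 250 bases before the second start are shown because no other upstream sequence searched for a called member held the NF-kB consensus. Both strands were searched, and the called genes Tnfsf9 and Tnfrsf10b had no promoter window to search. The window is chr4:150927749-150927998 on the plus strand, and the capitals mark 2 overlapping matches, which begin 43 and 42 bases before the start.
Tnfrsf9 upstream: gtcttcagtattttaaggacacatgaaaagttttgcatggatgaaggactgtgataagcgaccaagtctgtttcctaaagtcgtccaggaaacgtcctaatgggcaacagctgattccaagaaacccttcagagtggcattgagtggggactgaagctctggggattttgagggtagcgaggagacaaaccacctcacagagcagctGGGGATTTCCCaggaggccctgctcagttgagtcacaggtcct
The counts do not tell the 2 starts apart. The consensus was present in 3 of the 24 members with a promoter window (Tnfrsf8, Tnfrsf9 and Tnfrsf25), or 3 of their 28 windows. It was present in 8.46% of 32817 promoter windows of the same 300 bases, so a match is common and is given as a description only.

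Both receptors for TNF were lower, and not to the same extent. Tnfrsf1a, the death domain receptor that most cells carry, had 11439, 12253 and 10722 normalized counts in WT and 8397, 8257 and 7887 in labelled KO libraries. It fell 1.40-fold (log2 fold change -0.49, SE 0.069, limma adjusted p = 0.00042). Tnfrsf1b, the TRAF-binding receptor that responds best to TNF held in the membrane, had 4461, 4718 and 4274 in WT and 1594, 1812 and 1605 in labelled KO libraries. It fell 2.69-fold (log2 fold change -1.43, SE 0.074, limma adjusted p = 2.02e-06). Neither gene's groups overlapped. Per kb of exon, Tnfrsf1a stood 3.78, 3.83 and 3.70 times as high as Tnfrsf1b in WT and 7.76, 6.72 and 7.24 times as high in labelled KO libraries. This ratio rose 1.92-fold (exact two-sided permutation test p = 0.1, the smallest that 3 against 3 libraries allow).

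Transcripts of the ligands of these receptors were scarce. Tnf, examined here with the superfamily genes that carry no number, had 6 reads in the 3 WT libraries together and 15 in the labelled KO libraries, too few to be tested. Lta, which encodes lymphotoxin alpha, had 25 and 26 reads. Of the 7 ligand genes of this kind 2 were tested. Ltb, the lymphotoxin beta gene expressed mainly by lymphocytes, rose from 17.4, 12.4 and 32.2 to 91.7, 99.5 and 129 (5.16-fold, limma adjusted p = 0.000553). Eda, the ectodysplasin gene, did not pass (105 ± 22.1 in WT and 130.4 ± 10.4 in labelled KO libraries, SD, n = 3, limma adjusted p = 0.178). Fasl had 0 reads in WT and 5 in labelled KO libraries, Cd40lg 1 and 2, and Cd70 6 and 2. Among 8 receptor genes of this kind 7 were tested, 3 fell and 2 rose, a share near the 71.1% of all genes called. The death receptor gene Fas fell 2.74-fold, from 1663 ± 236 to 608 ± 60.6, the lymphotoxin beta receptor gene Ltbr 1.84-fold and the ectodysplasin A2 receptor gene Eda2r 1.69-fold. Cd40 rose from 5.15 ± 4.43 to 25.6 ± 6.35 and the neurotrophin receptor gene Ngfr from 9.02 ± 5.80 to 50.3 ± 14.9. Relt (639 ± 57.3 and 660.0 ± 4.71) and Cd27 (8.65 ± 2.24 and 13.96 ± 3.79) did not pass, and Edar had 7 and 3 reads.

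Receptors for TRAIL moved in opposite directions. TRAIL, the product of Tnfsf10, binds in mice to the death receptor encoded by Tnfrsf10b and to the decoy receptors encoded by Tnfrsf22 and Tnfrsf23, which have no death domain. Tnfrsf10b had 2577, 3004 and 2639 normalized counts in WT and 1476, 1286 and 1358 in labelled KO libraries, a 2.00-fold fall (log2 fold change -0.99, SE 0.085, limma adjusted p = 2.71e-05). Tnfrsf23 had 1433, 1780 and 1727 in WT and 3388, 3627 and 3693 in labelled KO libraries, a 2.17-fold rise (log2 fold change 1.12, SE 0.092, limma adjusted p = 2.24e-05). The groups of both genes lay apart. Per kb of exon, Tnfrsf23 stood 0.765, 0.815 and 0.900 times as high as Tnfrsf10b in WT and 3.16, 3.88 and 3.74 times as high in labelled KO libraries (exact two-sided permutation test p = 0.1, the smallest possible). With opposite moves and no overlap in either gene, this ratio had to separate the groups, so its p adds no evidence.

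The neighbouring genes on chromosome 7 moved less. Tnfrsf22, 16.1 kb from Tnfrsf23, had 286, 414 and 384 in WT and 465, 470.0 and 448 in labelled KO libraries, groups that did not overlap. It did not pass the test (log2 fold change 0.37, 95% confidence interval 0.027 to 0.71, limma adjusted p = 0.0527), and it passed with upper-quartile scaling (adjusted p = 0.0339) or without WT replicate 2 (adjusted p = 0.0218). Tnfrsf26, a receptor gene 6.96 kb on the other side, had 120.1, 92.0 and 123.4 in WT and 106, 108 and 99.4 in labelled KO libraries, with overlapping groups (95% confidence interval of the log2 fold change -0.50 to 0.33). Reads of the pair Tnfrsf22 and Tnfrsf23 are partly uncertain, since 19.3% of the 50-base windows of the Tnfrsf23 transcripts also occur in Tnfrsf22 or an antisense gene, and 27.4% of those of Tnfrsf22 occur elsewhere. For Tnfrsf10b that share was 6.21%.

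The TRAIL gene itself was low. Tnfsf10 had 1.83, 2.49 and 11.1 in WT and 17.3, 33.6 and 29.7 in labelled KO libraries (log2 fold change 2.45, SE 0.61, limma adjusted p = 0.00738). The 5.24-fold rise of the means became 12.4-fold without WT replicate 3, which held most of the WT reads.

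Tnfsf15 and Tnfsf18, ligand genes known from endothelial cells, both rose. Tnfsf15 encodes TL1A, which binds the death domain receptor DR3 (Tnfrsf25) on T cells. It had 149.5, 204 and 197 normalized counts in WT and 672, 677 and 683 in labelled KO libraries, so the labelled KO libraries were close together and all above WT. The rise was 3.69-fold (log2 fold change 1.89, SE 0.14, limma adjusted p = 1.20e-05). Its receptor gene Tnfrsf25 was low and did not pass (27.5 ± 4.17 in WT and 34.0 ± 5.81 in labelled KO libraries, SD, n = 3, limma adjusted p = 0.354, 95% confidence interval of the log2 fold change -0.33 to 0.92). Tnfsf18, the ligand gene of GITR, rose from 19.3, 20.7 and 23.0 to 69.3, 80.3 and 65.1 (3.41-fold, limma adjusted p = 0.000308). The GITR gene Tnfrsf18 (31.4 ± 11.4 and 41.2 ± 4.13, adjusted p = 0.257) did not pass, and 27.2% of its exon bases lie opposite an antisense gene. Most markers of endothelial cells were also higher in labelled KO libraries. Of 10 such markers 8 rose, 2 did not pass and none was without reads, where 36.2% of all genes tested rose. Their summed level was 381 to 540 in WT and 1014 to 1337 in labelled KO libraries. Emcn went from 7.91 to 44.2 and Pecam1 from 34.7 to 264 (group means). Emcn reached 10 in no WT library, so it was tested only because labelled KO libraries were high. The part of endothelial RNA in the rise of Tnfsf15, Tnfsf18 and Tnfsf10 was not tested, and in such bulk libraries more cells of a type and more RNA per cell cannot be told apart.

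The B cell survival factors BAFF and APRIL moved in opposite directions. Tnfsf13b, the BAFF gene, had 136, 108 and 103 normalized counts in WT and 342, 309 and 344 in labelled KO libraries. It rose 2.87-fold (log2 fold change 1.52, SE 0.15, limma adjusted p = 6.17e-05), with no overlap. Tnfsf13, the APRIL gene, had 92.6, 91.2 and 96.7 in WT and 17.3, 19.2 and 26.3 in labelled KO libraries. It fell 4.47-fold (log2 fold change -2.13, SE 0.24, limma adjusted p = 0.000125). Per kb of exon the ratio of Tnfsf13b to Tnfsf13 went from 0.295 ± 0.049 in WT to 3.89 ± 0.80 in labelled KO libraries (SD, n = 3, exact two-sided permutation test p = 0.1, the smallest possible). Here too the opposite moves without overlap fixed that p in advance, and it adds no evidence. Tnfsf13 shares 60.1% of its exon bases with Tnfsfm13, a read-through gene that joins Tnfsf12 and Tnfsf13, so its reads and this ratio are partly uncertain. Tnfsfm13 did not differ detectably (31.5 ± 10.4 and 36.0 ± 18.4, limma adjusted p = 0.899).

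BAFF and APRIL receptors were near the lower limit of detection. Tnfrsf13c, the BAFF receptor gene, had 8.25, 3.32 and 10.1 in WT and 32.6, 17.98 and 15.99 in labelled KO libraries (log2 fold change 1.54, SE 0.49, limma adjusted p = 0.0224). Leaving out labelled KO replicate 1 ended this call (log2 fold change 1.24, adjusted p = 0.0809). Tnfrsf13b, the TACI gene, had 4 reads in WT and 29 in labelled KO libraries and was not tested. The ratio of its levels was 9.11 with an exact 95% counting interval of 3.20 to 35.7, and its fold by the means fell from 8.66 to 5.32 without labelled KO replicate 1. Tnfrsf17, the BCMA gene of plasma cells, had 1 read in WT and 6 in labelled KO libraries (ratio 7.54, interval 0.915 to 347). These intervals cover counting error only. All 6 B cell markers had reads in both groups, 3 rose and 3 did not pass, where 36.2% of all genes tested rose. The number that rose was 1 without labelled KO replicate 1 and 6 without WT replicate 1. Their summed level was 244, 58.1 and 156 in WT replicates 1 to 3 and 1274, 302 and 418 in labelled KO replicates 1 to 3. The labelled KO replicate 1 was the highest library for this sum, for Tnfrsf13c and for Tnfrsf13b. The part of B cell RNA in these receptor levels was not tested.

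**Figure D3:**
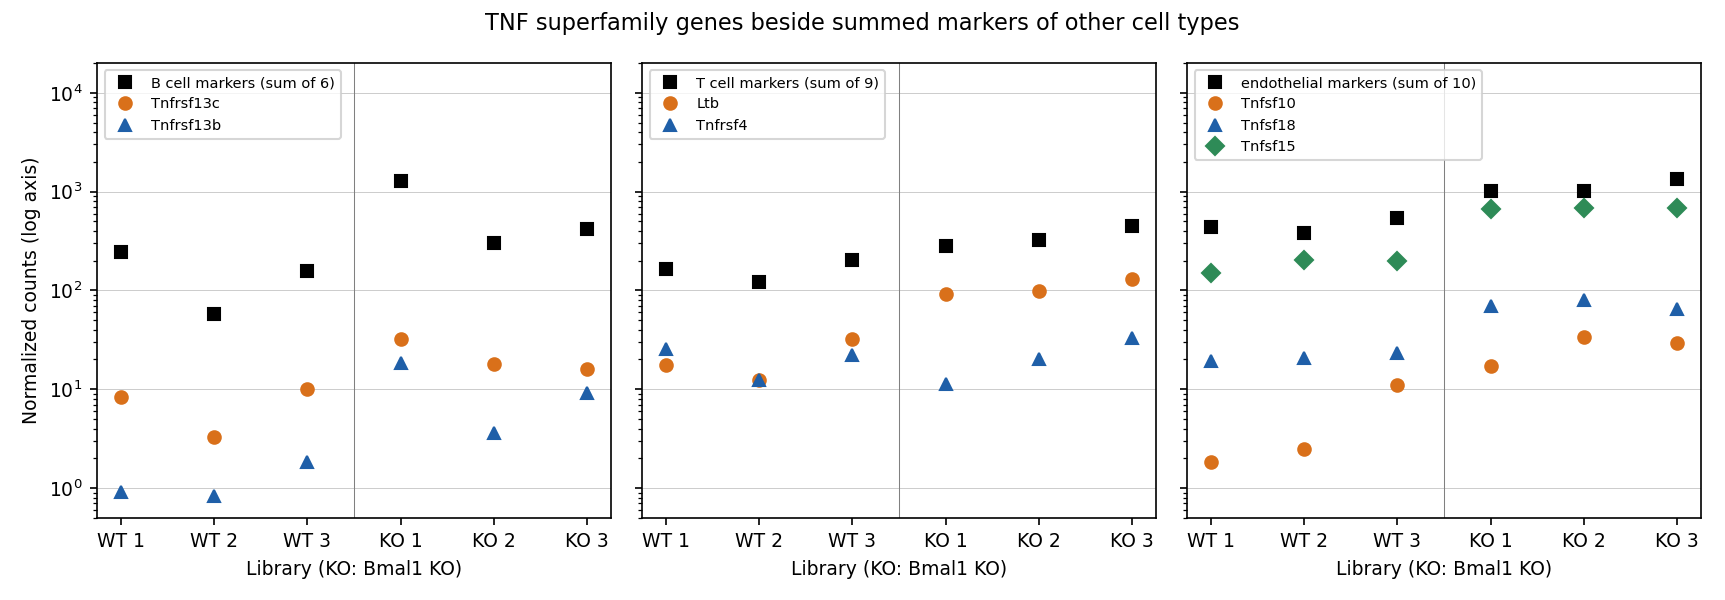
Normalized counts (log axis) in each library of summed markers of B cells, T cells and endothelial cells (squares) beside superfamily genes known from those cells. The B cell sum runs from 58.1 to 244 in WT and from 302 to 1274 in labelled KO libraries, and Tnfrsf13c from 3.32 to 10.1 and from 15.99 to 32.6.

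T cell markers were mostly higher, and macrophage markers were mixed. Beside the counts below, 36.2% of all genes tested rose and 34.9% fell, 71.1% in all. Of 9 T cell markers 8 rose, 1 (Lck) did not pass and none was without reads. Cd3e, Cd3d, Cd3g and Cd8a reached 10 in no WT library, so they were tested only because labelled KO libraries were high. Lck was the highest of the list in WT (group means 114 and 110). The number that rose was 4 without labelled KO replicate 3 and 5 without labelled KO replicate 2, and their sum was 123 to 205 in WT and 279 to 447 in labelled KO libraries. Ltb stood at 12.4 to 32.2 and 91.7 to 129 in the same libraries. Of 13 macrophage markers 12 were tested, 9 rose, 2 fell and 1 did not pass. Among the rises, Itgam and Mrc1 also reached 10 in no WT library and were tested only because labelled KO libraries were high. The falls were in Cd14 (7.14-fold) and Cd68 (4.71-fold), which carry most of the list's counts in WT, and its sum was lower in labelled KO libraries (1984 to 2522) than in WT (3408 to 3890), whereas Csf1r rose 4.13-fold. Macrophages are known to make BAFF, and the part of their RNA in the rise of Tnfsf13b was not tested. Of 8 fibroblast markers 5 rose and 3 fell, with sums of 15720 to 16730 in WT and 29200 to 31990 in labelled KO libraries. The rise of that sum came mainly from Ly6a (group means 3336 and 16628), while Lum fell 8.38-fold and Cd34 3.42-fold. Of 6 mesothelial markers tested 2 rose and 4 fell, with sums of 3629 to 4656 and 7334 to 8059. The higher sum came from Msln (group means 356 and 4525) and Upk1b (294.5 and 1676), while the falls included Wt1 (13.9-fold) and Upk3b (5.65-fold). Tnfrsf9 and Tnfsf9 were lower in labelled KO libraries, where most lymphocyte markers were higher, and the part of lymphocyte RNA in their levels was not tested.

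RANK was lower, and its ligand was detected mainly in WT. Tnfrsf11a, which encodes RANK, the receptor that drives osteoclast formation, had 154, 199 and 175 normalized counts in WT and 23.4, 46.8 and 32.0 in labelled KO libraries. It fell 5.17-fold (log2 fold change -2.38, SE 0.27, limma adjusted p = 0.000136), with no overlap. Tnfsf11, the RANK ligand gene, had 17.4, 32.3 and 24.9 in WT and 7.13, 2.40 and 1.14 in labelled KO libraries, or 85 reads against 10. It passed the filter through WT alone, so it had to differ to be tested, and its p is given as a description. Its log2 fold change was -2.69 (SE 0.57, limma adjusted p = 0.00323) and its fold by the means 6.99, which became 14.1 without labelled KO replicate 1. The exact 95% counting interval of the read ratio was 3.50 to 14.6.

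The TWEAK receptor rose while TWEAK did not. Tnfrsf12a encodes Fn14, a small TRAF-binding receptor induced in injured vessels, and had 4322, 4335 and 3842 in WT and 6999.7, 6126 and 6508 in labelled KO libraries. It rose 1.57-fold (log2 fold change 0.65, SE 0.077, limma adjusted p = 0.000156), and the groups lay apart. Tnfsf12, the TWEAK gene, had 799.7, 611 and 558 in WT and 719, 619 and 629 in labelled KO libraries. The groups overlapped fully, and the 95% confidence interval of the log2 fold change ran from -0.32 to 0.34. Tnfsf12 shares 48.3% of its exon bases with the read-through gene Tnfsfm13.

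Tnfrsf21 rose. It encodes the death domain receptor DR6, a receptor known from neurons and lymphocytes, and had 266, 312 and 365 normalized counts in WT and 1061, 1182 and 1212 in labelled KO libraries. It rose 3.67-fold (log2 fold change 1.88, SE 0.13, limma adjusted p = 8.47e-06), with every labelled KO library above every WT library. Its upstream sequence is shown because it was the only promoter window of a called member with the letters CACGTG, the E-box to which CLOCK and BMAL1 bind. The called genes Tnfsf9 and Tnfrsf10b had no window to search. The window is chr17:43016305-43016555 on the plus strand (GRCm38.p6, RefSeq), and the capitals mark the match, which begins 5 bases before the start.
Tnfrsf21 upstream: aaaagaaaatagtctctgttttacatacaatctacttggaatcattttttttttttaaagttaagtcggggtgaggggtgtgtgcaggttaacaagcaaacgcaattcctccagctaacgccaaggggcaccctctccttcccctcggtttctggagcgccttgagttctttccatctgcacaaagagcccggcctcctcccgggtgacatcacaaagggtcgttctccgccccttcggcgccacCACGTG
CACGTG reads the same on both strands. It was present in 4 of the 24 members with a promoter window (Tnfrsf4, Tnfrsf8, Tnfrsf19 and Tnfrsf21) and in 7.15% of 32817 promoter windows of the same length. Of the other 3 members with it, Tnfrsf4 and Tnfrsf19 did not pass the test and Tnfrsf8 was not tested. A match in letters does not show that the site is bound.

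The remaining members were low or did not pass the test. Tnfsf8, the CD30 ligand gene, had 23.8, 28.2 and 30.4 in WT and 12.2, 3.60 and 5.71 in labelled KO libraries. It fell 3.83-fold (log2 fold change -1.93, SE 0.45, limma adjusted p = 0.00535), or 5.90-fold without labelled KO replicate 1. Its receptor gene Tnfrsf8 had 9 and 7 reads. The OX40 gene Tnfrsf4 (20.1 ± 6.85 in WT and 21.6 ± 11.0 in labelled KO libraries, SD, n = 3) did not pass, with a wide interval of the log2 fold change, -1.04 to 1.11. The OX40 ligand gene Tnfsf4 had 1 read in WT and none in labelled KO libraries. The gene of HVEM, Tnfrsf14 (46.6 ± 6.83 and 54.0 ± 5.72, interval -0.30 to 0.74), did not pass, and its ligand LIGHT (Tnfsf14) had 12 and 10 reads. Tnfrsf19, which encodes TROY, a receptor of developing skin and brain, had 116.5, 87.1 and 91.2 in WT and 82.5, 119.9 and 112.0 in labelled KO libraries, with overlapping groups (interval -0.41 to 0.58).

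Members that are neighbours in the genome did not always move together. Tnfsf15 rose and Tnfsf8 fell, although they lie 86.1 kb apart on chromosome 4. Tnfsf12 did not pass and Tnfsf13 fell, 0.685 kb apart on chromosome 11. Tnfrsf4 and Tnfrsf18, 9.71 kb apart on chromosome 4, both did not pass.

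Per kb of exon, which makes levels of different genes roughly comparable, the order of the receptors differed between the groups. In WT, Tnfrsf1a was highest (4427 ± 296 normalized counts per kb, SD, n = 3), followed by Tnfrsf12a (2157 ± 145), Tnfrsf1b (1175 ± 58.4), Tnfrsf9 (644 ± 21.0), Tnfrsf10b (503 ± 42.4) and Tnfrsf23 (416 ± 47.1). The library values of Tnfrsf10b and Tnfrsf23, 473 to 551 and 362 to 449, did not overlap. In labelled KO, Tnfrsf12a (3387 ± 227) and Tnfrsf1a (3157 ± 102) had overlapping values of 3171 to 3623 and 3044 to 3241, so their order was not resolved. Tnfrsf23 (901 ± 40.5), Tnfrsf1b (437 ± 32.1), Tnfrsf21 (280 ± 19.5) and Tnfrsf10b (252 ± 17.5) followed, the last pair with overlapping values. The summed receptor level per kb was 9160 to 10210 in WT and 8569 to 8946 in labelled KO libraries. Tnfrsf1a made up 45.9% ± 0.59 of it in WT and 36.3% ± 0.92 in labelled KO libraries, and Tnfrsf12a 22.3% ± 0.88 and 38.9% ± 1.76. The summed ligand level was 1130 to 1369 in WT and 810.0 to 878.5 in labelled KO libraries. Tnfsf9 made up 52.8% ± 2.23 of it in WT and 11.2% ± 1.07 in labelled KO libraries. Tnfsf12, whose level did not pass the test, made up 34.3% ± 3.70 and 51.8% ± 2.06, the largest ligand share in labelled KO libraries. Tnfsf15 made up 4.43% ± 1.03 and 24.3% ± 1.26. Tnfsf12 and Tnfsf13 share 48.3% and 60.1% of their exon bases with Tnfsfm13, which is counted separately. Reads of shared bases may be missing from both genes, so the ligand shares and the order of Tnfsf9 and Tnfsf12 in WT are uncertain.

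**Figure D4:**
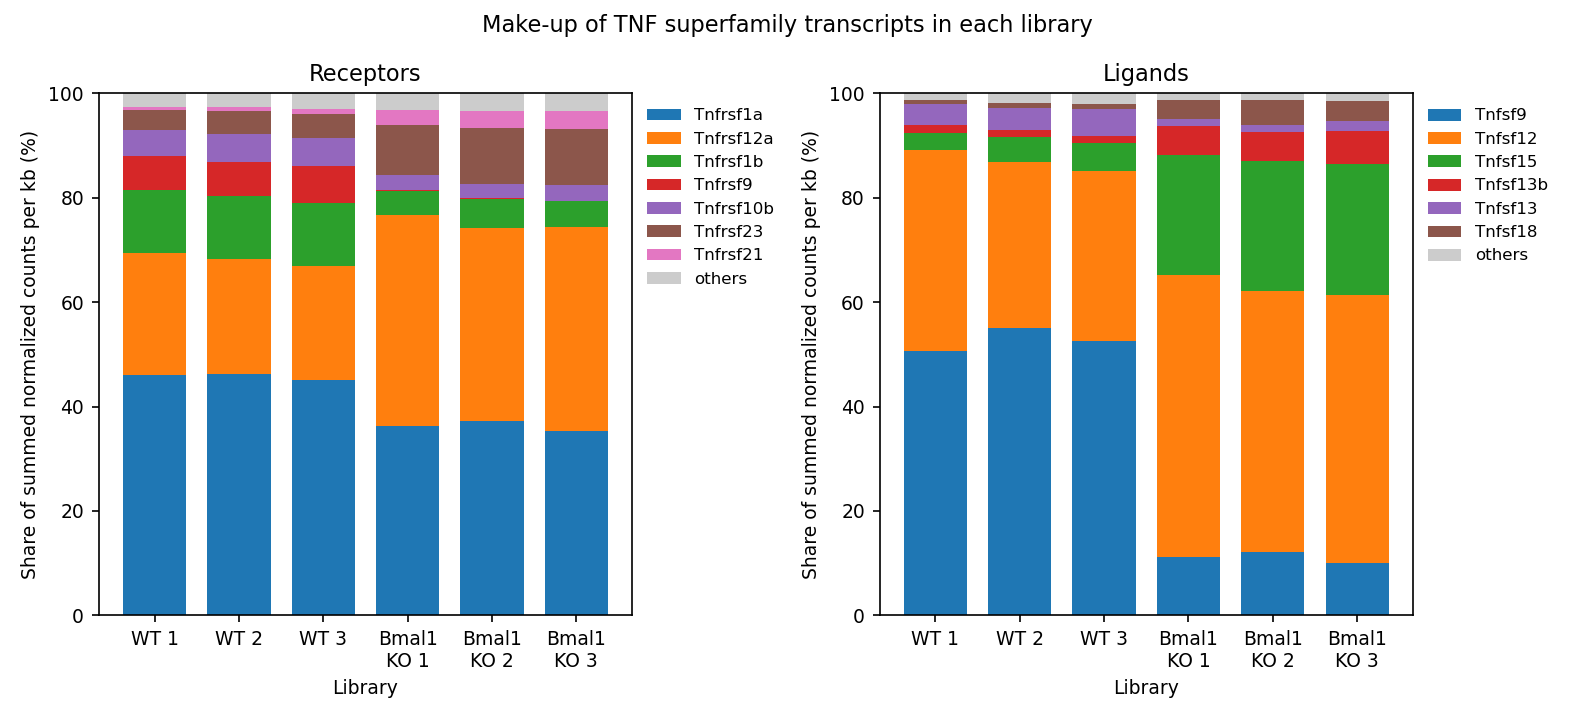
Share (%) of the summed normalized counts per kb of exon that each gene made up in each library, for receptors (left) and ligands (right). The receptor bars are led by Tnfrsf1a in WT (mean 45.9%) and by Tnfrsf12a (38.9%) and Tnfrsf1a (36.3%) in labelled KO libraries, and the Tnfsf9 share falls from a mean of 52.8% to 11.2%. Ligand shares are uncertain because Tnfsf12 and Tnfsf13 share exon bases with Tnfsfm13.

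Genes on the route from these receptors to NF-kB, brakes among them, were mostly lower, where 34.9% of all genes tested fell and 36.2% rose. Among 27 adaptors, enzymes and brakes of this route there were 17 falls, 5 rises and 5 genes past no threshold. Their median log2 fold change was -0.42, against -0.012 over all genes. Traf4 fell 3.78-fold, from 3586 ± 216 to 949 ± 51.3, and Map3k14, the kinase NIK of the noncanonical route, 4.27-fold. Tnfaip3, the NF-kB brake A20, fell 3.72-fold and its partner Tnip1 2.60-fold (limma adjusted p between 4.12e-07 and 2.35e-06 for these 4). Birc3, which encodes a ubiquitin ligase bound to TRAF proteins, rose 2.53-fold, and is named after its value was seen. The number that rose was 3 without WT replicate 3, labelled KO replicate 1 or labelled KO replicate 3. All 10 NF-kB subunit and inhibitor genes fell, Bcl3 by 7.00-fold, Nfkbiz by 4.31-fold, Nfkb2 by 1.97-fold and Nfkbib by 1.71-fold (median -0.92). Both lists were chosen with earlier results of these data known, so their counts are not independent evidence. The call of Rel, an NF-kB subunit gene, ended under 7 alternatives (adjusted p 0.0562 to 0.125), among them upper-quartile scaling, DESeq2 and leaving out WT replicate 2 or 3 or labelled KO replicate 1 or 3, and the other 9 kept theirs.

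Genes known to be induced by TNF were lower as well, with 16 of 19 tested falling, 2 rising (Birc3 and Traf1) and 1 not passing (median log2 fold change -2.06). This list was drawn up with such falls in these libraries known, so its count is not independent evidence. It also shares genes with the lists above, among them Tnfaip3, Birc3 and Traf1, so those calls are counted again. The chemokine genes Cxcl1 and Ccl2 fell from 27166 ± 1436 to 64.8 ± 14.6 and from 27582 ± 4738 to 967 ± 81.3. The acute phase genes Saa3 and Lcn2 fell 305-fold and 16.0-fold. A single gene of the list rose without WT replicate 3, labelled KO replicate 1 or labelled KO replicate 3.

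The 12 genes of the death route held 6 falls, 5 rises and 1 gene, Cyld, that missed the threshold, and their median log2 fold change was -0.068. Falls numbered 4 with upper-quartile scaling or without labelled KO replicate 2 or 3, where the calls of the adaptor genes Fadd and Cradd ended. The falls included that of Bid, a substrate of caspase-8 that links death receptors to mitochondria, from 1743 ± 11.2 to 518 ± 2.95 (3.37-fold, limma adjusted p = 3.61e-07). Cflar, which encodes the caspase-8 inhibitor FLIP, rose from 2193 ± 199 to 5254 ± 146 (2.40-fold, limma adjusted p = 4.92e-06). The necroptosis kinase gene Ripk3 rose 2.21-fold, from 1320.3 ± 59.99 to 2913 ± 50.3. Among 7 genes of shedding and trafficking, Adam17, the protease that releases TNF and both its receptors, fell 1.75-fold and its partner Rhbdf2 3.77-fold. Timp3, an inhibitor of ADAM17, rose 1.87-fold and Tnfaip1 1.63-fold. In all 3 of the 7 rose, 2 fell and 2 did not pass, again near the 71.1% of all genes called.

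**Figure D5:**
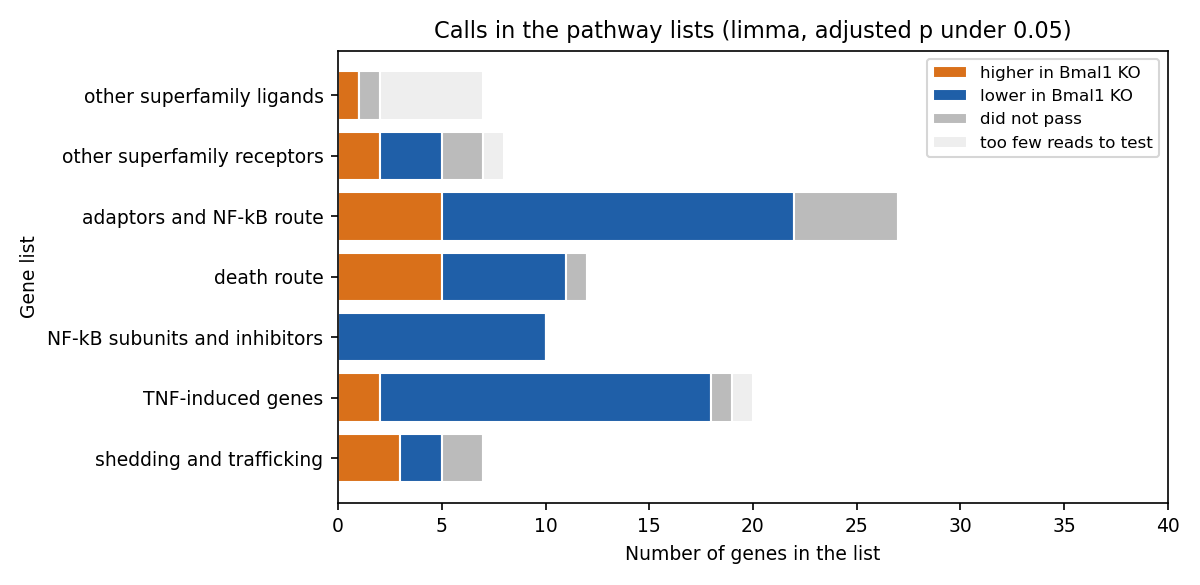
Number of genes in each pathway list that were higher, lower or not past the limma threshold in the labelled KO libraries, or had too few reads to be tested. All 10 NF-kB subunit and inhibitor genes fell, while 5 genes of the death route were higher and 6 lower. The lists were chosen with earlier results of these data known.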

How the data were processed

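Messenger RNA libraries of 6 samples were compared, 3 WT and 3 Bmal1 KO, grouped by sample title. Trimmomatic, HISAT2, featureCounts and mm10 appear, with no role given, per the submitters' processing notes. The authors' deposited table holds a signal per gene and library, normalized read counts. Dividing each library by a single step gave whole reads (100% of values within 0.01), and the steps equalled median-ratio size factors, which assume that most genes do not differ. Limma 3.58.1 (R 4.3.3, eBayes with trend, two-sided) was run on log2(value + 1), with group as the only term, over genes of at least 10 in at least 3 libraries, with a threshold of 0.05 after Benjamini-Hochberg adjustment over 16086 genes. This scale understates changes of low genes, and folds are ratios of mean normalized counts. Alternatives were other scalings, pseudocounts and filters, blocking on replicate number, omitting each library in turn, edgeR 4.0.16 and DESeq2 1.42.0 on recovered reads (edgeR called 11479 genes). The test was checked on simulated data in which far fewer genes differed than were called here, so the check does not cover that setting. No pair of replicates agreed within sampling noise. Exon lengths and overlaps came from GENCODE M21 (GRCm38) and coordinates from RefSeq (GRCm38.p6). All 30 members matched RefSeq by gene ID, and 24 had a promoter window, 250 bases before to 50 after a start.

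Every member that passed the filter was named, those with a group mean of at least 100 with each library's value, as was every superfamily gene without a number. Genes of the remaining lists were taken from the 4 called ones with the lowest adjusted p in each. Birc3, Traf1, Lck, Cyld, Rel, Fadd, Cradd, Cd3d, Cd8a, Itgam, Cxcl2 and Tnfsfm13 were named after their values were seen. The members and lists were chosen with earlier results of these data known. Columns of the table without a sample numbered 0. Some genes of the lists are not reported here by name.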

Additional observations from a re-analysis of the deposited data

How the results depend on the processing

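Over 15 alternatives, 365 of 369 values of the 25 tested members kept their call, and the exceptions were in Tnfrsf13c and Tnfrsf22. The sign changed in 9 values of 3 members that did not pass (Tnfsf12, Tnfrsf4 and Tnfrsf19), and in no called member. The number of members higher was 6 to 10 (8 reported) and lower 7 to 9 (9 reported). The 1 CPM filter gave 6 and 7 because low members were not tested, and without a filter Tnfrsf13b and Tnfrsf17 were added to the rises. Over all genes tested the replicate numbers gave no sign of pairing (correlations of same-numbered deviations -0.0045, 0.026 and 0.084), which cannot exclude it. With the replicate number as a block Tnfrsf22 passed (adjusted p = 0.0492), the adaptor list had 3 rises in place of 5, the TNF-induced list 1 in place of 2 and the B cell list 6 in place of 3. With each library left out, rises numbered 3 to 4 in the adaptor list, 1 to 2 in the TNF-induced list, 4 to 8 in the T cell list and 1 to 6 in the B cell list. The 1 CPM filter left 0 rises among the superfamily receptors without a number and 1 among T cell markers. Without a filter, 3 superfamily ligands without a number rose in place of 1. The cause of these changes was not tested beyond the number of genes or libraries used. No scaling moved the median of all genes by more than 0.1 on the log2 scale. Depth limits the 5 untested members, with 0 to 29 reads a group. For Tnfsf4, Tnfsf14 and Tnfrsf8 no difference was detectable at this depth.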
